A study of Homo sapiens with 8 samples.

Results

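The genes described here are 10 cyclic nucleotide phosphodiesterases (PDEs) that do not belong to the PDE6 family of photoreceptors: PDE1C, PDE2A, PDE3A, PDE4B, PDE4D, PDE5A, PDE7B, PDE8B, PDE9A and PDE10A. They are 10 of the 18 PDE genes outside PDE6, and 10 of the 60668 gene rows of each count table. The members were chosen from the measured difference between DOX and untreated cells, so their levels in that comparison are given as a description, with no test.

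RNA was measured in D283-OMO cells, a derivative of the human medulloblastoma line D283 Med. These cells carry a lentiviral transgene for Flag-tagged OMOMYC, a dominant-negative form of MYC that doxycycline (DOX) switches on, and they were selected with hygromycin. All 8 libraries come from these transduced cells: 4 were untreated and 4 were treated with DOX for 72 h. Libraries of D283 cells without the transgene were not used here, so an effect of DOX itself and an effect of OMOMYC cannot be told apart.

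Cyclic AMP (cAMP) and cyclic GMP (cGMP) are second messengers, made by adenylyl and guanylyl cyclases and broken down by PDEs. PDE4, PDE7 and PDE8 enzymes hydrolyse cAMP, PDE5, PDE6 and PDE9 enzymes hydrolyse cGMP, and PDE1, PDE2, PDE3, PDE10 and PDE11 enzymes act on both. In nerve cells, the PDEs that a cell makes set how long and where in the cell protein kinase A (PKA), protein kinase G (PKG), cyclic nucleotide-gated channels and the transcription factor CREB are active.

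Since MYC binds E-boxes, sequence around the start sites was inspected first. RefSeq windows of 300 bases on GRCh38.p14 (250 before and 50 after an annotated start) were at hand for 9 of the 10 members, 32 windows in all. PDE9A had none. Searched on both strands, the canonical E-box CACGTG was found in 1 of the 32 windows, against 7.26% of 35116 windows of all genes. The variant CACGCG was found in 0 of 32, against 11.4%. The cAMP response element TGACGTCA, bound by CREB, was found in 1 of 32, against 1.85%. A gene can hold several windows, and some of them overlap. Counted by gene, the E-box was found in 1 of 9 members, against 8.77% of 27305 genes. The variant was found in 0 of 9, against 13.5%, and the cAMP response element in 1 of 9, against 2.25%. The matches are shown because they are the member windows that hold a MYC or CREB motif, together with PDE2A, whose RNA was lowest in DOX relative to untreated cells among the members. The lines below run 5′ to 3′ on the strand of the gene, with the motif in capitals.
PDE8B, chr5:77180319-77180348, plus strand, E-box 27 bases past an upstream RefSeq start: aaccagagccttCACGTGggcacgaggccc
PDE7B, chr6:135851535-135851564, plus strand, cAMP response element 155 bases before the start: actaaacccttTGACGTCActcttgaaatg
PDE2A, chr11:72674423-72674672, minus strand, the 250 bases before the only RefSeq start, with none of these motifs: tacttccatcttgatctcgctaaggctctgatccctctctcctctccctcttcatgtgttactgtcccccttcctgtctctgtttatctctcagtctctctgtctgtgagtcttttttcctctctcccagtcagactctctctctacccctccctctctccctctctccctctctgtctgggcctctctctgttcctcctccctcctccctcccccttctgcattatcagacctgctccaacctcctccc

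Among the other PDE genes outside PDE6, 6 had windows, 26 in all. An E-box was found in 1 window, of PDE8A, and a cAMP response element and the E-box variant in 1, of PDE4A. The E-box and the cAMP response element are printed for comparison with the member windows above, and the variant is not. Distances to a start, here and above, are those of the first base of the motif. The PDE4A element begins 3 bases before the start and runs across it.
PDE8A, chr15:84980268-84980297, plus strand, E-box 187 bases before the start: tggtaatagagcCACGTGccagtggttcgg
PDE4A, chr19:10416759-10416788, plus strand, cAMP response element 3 bases before the start: cgtcagtccgcTGACGTCAcgccccaggag
A match of letters describes a sequence and is not a binding site.

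The count tables held 38390696 to 54020506 counts per library. Levels are given as CPM (counts of a gene relative to all counts of its library) scaled by TMM, a method that equalises libraries on the genes that change little, and fold changes as log2FC (DOX over untreated) with its standard error (SE). A gene was called differentially expressed when its FDR was under 0.001 and its log2FC exceeded 2 in either direction. By this rule 4.38% of the 15222 genes tested were higher and 2.75% were lower in DOX. At an adjusted p below 0.05 the shares were 38.5% and 38.1%, and the 4 DOX values did not overlap the 4 untreated values for 71.7% of genes tested. Mitochondrial genes took 4.73 to 5.13% of counts in untreated and 5.70 to 5.95% in DOX libraries, and the part of this difference in the results was not tested. Untreated replicate 3 stood apart, with a mean correlation with its group of 0.9903 against 0.9940 to 0.9946 for the other untreated libraries. It held the lowest untreated value of 7 of the 10 members. Without it, log2FC of the 7 members tested moved by less than the spread between replicates.

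Of the 10 members, 7 passed the filter of more than 1 CPM in at least 4 libraries. PDE3A, PDE7B and PDE10A did not. PDE9A passed through its DOX libraries alone and PDE2A through its untreated libraries alone, so both are left out when 5 or more libraries must reach 1 CPM. Of the 7, 5 had a positive and 2 a negative log2FC. Groups did not overlap for 9 of the 10 members, including all 7 tested. These counts follow from how the genes were chosen, and nothing is read from them against the shares of all genes. The median log2FC of the 7 was 0.55, and that of all genes tested was 0.01. In bulk RNA, a change in the number of cells that express a gene and a change in the RNA per cell cannot be told apart.

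**Figure D1:**
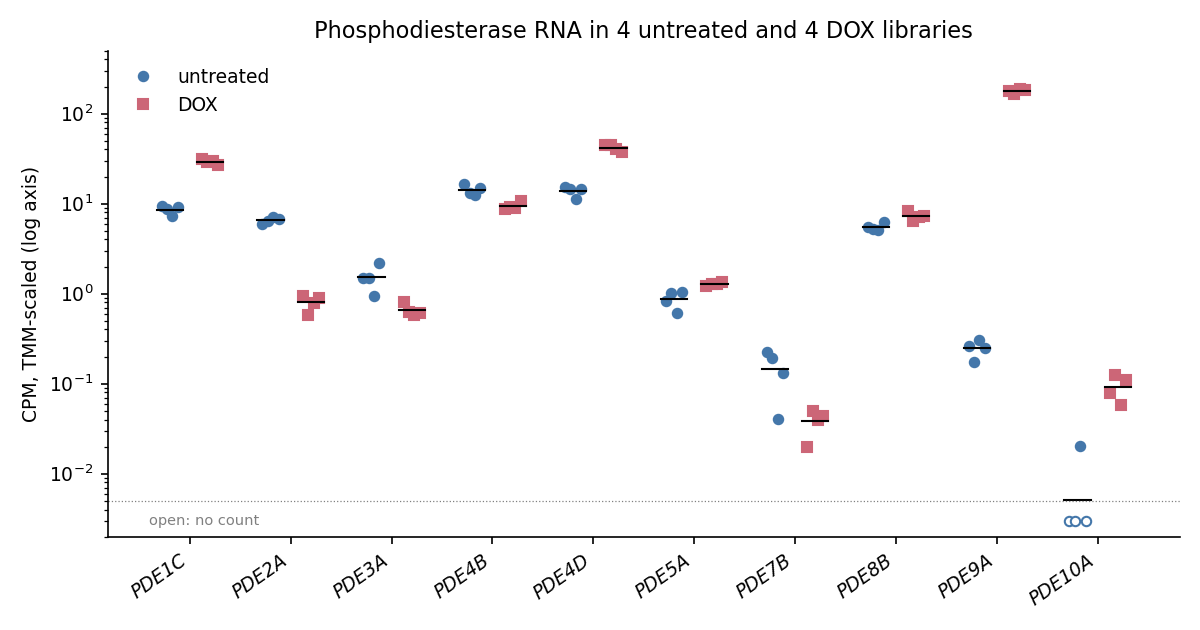
CPM of the 10 members in each library on a log axis, with untreated libraries as circles, DOX libraries as squares and the group mean as a line (open symbols: no count). PDE9A moves from 0.248 to 180 CPM on average, and only PDE7B has overlapping groups.

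PDE9A hydrolyses cGMP and has the highest affinity for it in the family. The gene (ENSG00000160191.18, chr21:42653636-42775509, plus strand, 13 coding transcripts in GENCODE 29) was nearly silent in untreated cells, with 13, 9, 15 and 11 expected counts in replicates 1 to 4. In DOX cells it had 9161, 6645, 9673 and 8419 counts. The DOX libraries were close to each other and far above the untreated ones. The mean was 0.248 ± 0.0548 CPM (SD, n = 4) in untreated and 180 ± 10.3 CPM (SD, n = 4) in DOX cells. The log2FC was 9.50 (SE 0.10). The summed counts, 48 against 33898, gave a ratio of 733 after scaling for depth, with a 95% exact interval of 553 to 994 that covers counting error only.

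Measured per length of exons, PDE9A moved from low in the order of the 18 PDE genes to the top. It was at 0.0470 CPM per kb in untreated cells, rank 14, where its range overlapped those of PDE4C and PDE7B. In DOX cells it was at 34.2 CPM per kb, rank 1, with no overlap with PDE7A, the next gene, at 6.08 CPM per kb. Its share of the summed CPM per kb of the 18 genes was 0.157 to 0.305% in untreated and 55.1 to 59.6% in DOX libraries.

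The other cGMP-specific member, PDE5A (ENSG00000138735.16, chr4:119494395-119628991, minus strand), is the target of sildenafil and stayed rare. It was at 0.826, 1.01, 0.610 and 1.05 CPM in untreated and 1.21, 1.27, 1.27 and 1.34 CPM in DOX libraries. The DOX values were all higher, by a small margin over the highest untreated library. The log2FC was 0.55 (SE 0.17). PDE5A shared 542 exonic bases with AC093752.1, a pseudogene on the opposite strand at 13.9 CPM in untreated and 16.2 CPM in DOX cells. RSEM gave PDE5A non-whole counts in 5 of 8 libraries, which shows that some of its reads were divided between genes. Whether counting used the strand is not given in the sources used here.

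Among the members that act on both nucleotides, PDE2A was lower and PDE1C higher in DOX cells. PDE2A, an enzyme that cGMP stimulates to break down cAMP (ENSG00000186642.16, chr11:72576141-72674591, minus strand), had 289, 332, 352 and 299 counts in untreated and 48, 23, 40 and 41 counts in DOX libraries. The lowest untreated library was 6 times or more above the highest DOX library. Mean levels were 6.54 ± 0.526 CPM and 0.801 ± 0.167 CPM (SD, n = 4 each). The log2FC was -3.01 (SE 0.14). Its 2 antisense neighbours in GENCODE 29, AP005019.1 and AP003065.1, had no counts in any library.

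PDE1C, which calcium and calmodulin activate (ENSG00000154678.18, chr7:31751179-32299329, minus strand), had 459, 448, 355 and 410 counts in untreated libraries. In DOX libraries it had 1590, 1152, 1540 and 1234. All 4 DOX values were at least 2 times the highest untreated one. Means were 8.61 ± 0.975 and 29.3 ± 1.80 CPM (SD, n = 4 each). The log2FC was 1.77 (SE 0.08). PDE1C shared no exonic bases with another gene.

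PDE3A, an enzyme that cGMP inhibits and that is best known from heart and platelets (ENSG00000172572.6, chr12:20369245-20684381, plus strand), was near the detection filter. It was at 1.48, 1.49, 0.951 and 2.22 CPM in untreated and 0.807, 0.631, 0.574 and 0.614 CPM in DOX libraries. The groups did not overlap, with untreated replicate 3 closest to the DOX libraries. In a fit without the filter its log2FC was -1.25 (SE 0.22). Its counts were non-whole in all 8 libraries.

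PDE10A, an enzyme of striatal neurons (ENSG00000112541.15, chr6:165327287-165988078, minus strand), was barely detected. It had 0, 0, 1 and 0 counts in untreated and 4, 5, 3 and 5 counts in DOX libraries. The sum of 1 count against 17 gave a scaled ratio of 17.6, with a 95% exact counting interval of 2.76 to 737, so the size of the difference could not be set at this depth. All untreated libraries were at or under a floor of 3 counts.

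The cAMP-specific members also differed among themselves. PDE4 enzymes, the targets of rolipram, break down cAMP in neurons and immune cells. PDE4D (ENSG00000113448.19, chr5:58969038-60522120, minus strand, 16 coding transcripts) had 742, 761, 561 and 648 counts in untreated and 2249, 1789, 2086 and 1709 in DOX libraries. All DOX values were above 2 times the highest untreated one. Means were 13.9 ± 1.72 and 41.8 ± 3.30 CPM (SD, n = 4 each). The log2FC was 1.58 (SE 0.09). The lincRNA PART1, antisense over 227 of its exonic bases, was at 0.113 and 0.101 CPM.

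PDE4B (ENSG00000184588.18, chr1:65792514-66374579, plus strand) went the other way. It had 804, 674, 612 and 673 counts in untreated libraries and 441, 366, 459 and 482 in DOX libraries. The 4 DOX values were all lower, and the gap between the groups was narrow beside that of PDE4D. Means were 14.2 ± 1.83 and 9.35 ± 0.859 CPM (SD, n = 4 each), with a log2FC of -0.61 (SE 0.10). In CPM the 2 PDE4 members stood at like levels in untreated cells (14.2 and 13.9). Per kb of exons PDE4B was above PDE4D in untreated cells (1.65 against 0.855) and below it in DOX cells (1.08 against 2.57), and in neither condition did the ranges of the 4 libraries overlap.

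PDE8B, a high-affinity cAMP enzyme (ENSG00000113231.13, chr5:77210449-77429807, plus strand), is the member whose window holds the E-box shown above, at a RefSeq start upstream of the GENCODE 29 gene. It was at 5.58, 5.18, 5.12 and 6.24 CPM in untreated and 8.36, 6.46, 7.07 and 7.30 CPM in DOX libraries. The highest untreated and the lowest DOX library were close, with no overlap. The log2FC was 0.41 (SE 0.10). Counts were non-whole in all 8 libraries. PDE8B shared 383 exonic bases with WDR41 on the opposite strand, at 37.1 CPM in untreated and 57.4 CPM in DOX cells, and 2889 with the protein-coding gene AC022414.1 on its own strand, at 0.167 and 0.0770 CPM. The part of these neighbours in the PDE8B value was not tested.

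PDE7B (ENSG00000171408.14, chr6:135851696-136195574, plus strand), whose window holds the cAMP response element, had 11, 10, 2 and 5.8 counts in untreated and 1, 2, 2 and 2 in DOX libraries. It was the only member with overlapping groups, since untreated replicate 3 was at the DOX level. The sums, rounded to whole counts, of 29 and 7 gave an untreated over DOX ratio of 3.99 with a 95% exact counting interval of 1.71 to 10.8. All DOX libraries were at or under the floor of 3 counts.

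The 8 PDE genes outside PDE6 that are not members are set beside them, with edgeR quasi-likelihood p-values adjusted over all 15222 genes. Of the 6 tested, 4 rose, 1 fell and 1 did not pass at an adjusted p below 0.05. By that rule 38.5% of all genes tested rose and 38.1% fell. The median log2FC of the 6 was 0.53, and no test of the set was made. The 1 differentially expressed gene was PDE4C, a cAMP-specific enzyme, at 0.400 ± 0.0651 CPM in untreated and 1.96 ± 0.218 CPM in DOX cells (SD, n = 4 each). Its log2FC was 2.28 (SE 0.15, adjusted p = 7.5e-08, edgeR). PDE4C shared 4625 exonic bases with the protein-coding gene AC008397.2 on the same strand, which was at 0.162 and 1.92 CPM, and its counts were non-whole in 7 of 8 libraries, so the division of reads between the pair is uncertain. It too is not tested when 5 or more libraries must reach 1 CPM.

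PDE8A, the paralog of PDE8B, rose from 30.4 to 45.2 CPM (log2FC 0.57, SE 0.06). PDE4A rose from 5.64 to 8.52 CPM (log2FC 0.60, SE 0.08), and the insulin-responsive PDE3B from 35.4 to 49.8 CPM (log2FC 0.49, SE 0.08). The edgeR adjusted p of these 3 was 3.0e-06, 2.8e-05 and 9.6e-05. In each, all 4 DOX libraries were above all untreated ones. PDE7A, a cAMP enzyme known from T cells, fell from 57.1 to 45.1 CPM (log2FC -0.34, SE 0.05, edgeR adjusted p = 3.5e-05). PDE11A, at 1.75 and 1.79 CPM, had overlapping groups (log2FC 0.03, SE 0.13, edgeR adjusted p = 0.82). PDE1A, a calmodulin-dependent paralog of PDE1C, was not tested and had 10 counts in untreated and 89 in DOX libraries together, a scaled ratio of 9.24 (95% exact counting interval 4.79 to 19.9). PDE1B had 1 and 10 counts (ratio 10.4, interval 1.48 to 450). For both, every untreated library was at or under the floor.

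**Figure D2:**
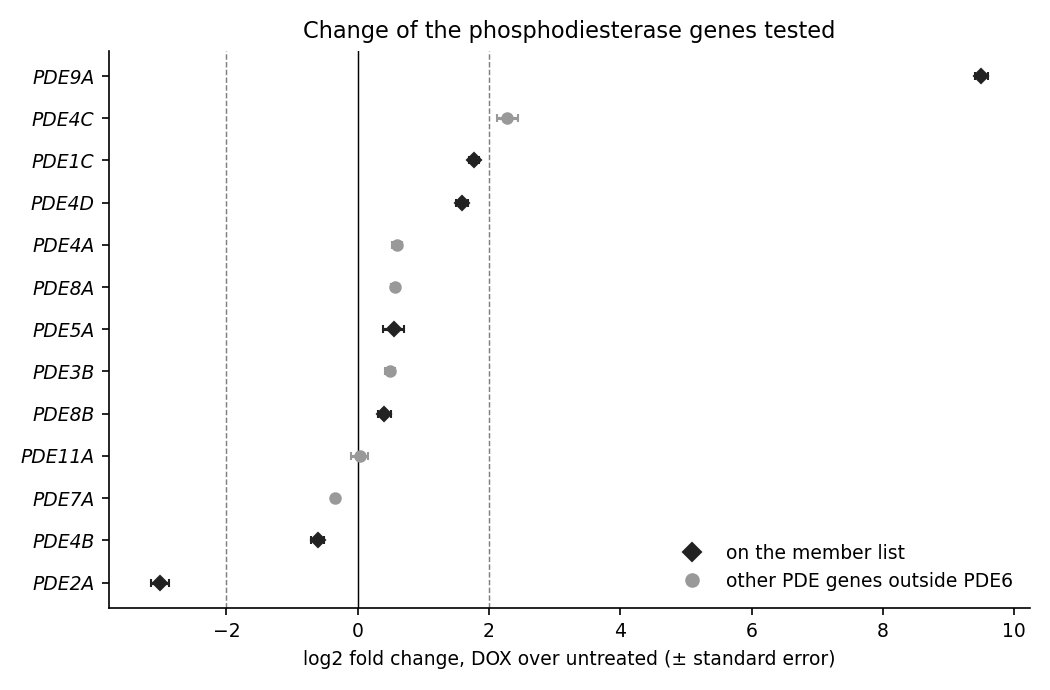
log2FC of DOX over untreated for the 13 PDE genes outside PDE6 that were tested, with SE as bars. Diamonds are members and circles the other genes, and dashed lines mark 2 in either direction; PDE9A, PDE4C and PDE2A lie beyond them.

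The make-up of PDE RNA was then compared by enzyme class, on the scale of CPM per kb of exons, as a description that holds the members' own difference. The sum over the 18 genes was 20.8 ± 1.26 CPM per kb in untreated and 59.2 ± 1.52 in DOX cells (SD, n = 4 each). Without PDE9A it was 20.8 ± 1.27 and 25.0 ± 0.867 CPM per kb. PDE9A thus held most of the difference in the sum. The 10 members made up 24.9% ± 0.933 of the sum in untreated and 69.8% ± 1.67 in DOX cells (SD, n = 4 each).

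The cAMP-specific genes made up 75.9% ± 0.783 in untreated and 30.6% ± 1.59 in DOX cells (SD, n = 4 each). The genes that act on both nucleotides made up 23.5% ± 0.745 and 11.5% ± 0.637. The cGMP-specific genes PDE5A and PDE9A went from 0.654% ± 0.0424 to 57.9% ± 2.09 of the sum. The shares of the groups did not overlap in any class. Shares add up to the whole, and the levels behind them moved otherwise: the cAMP-specific genes summed to 15.8 ± 0.866 CPM per kb in untreated and 18.1 ± 0.584 in DOX cells (SD, n = 4 each). The genes that act on both summed to 4.90 ± 0.411 and 6.80 ± 0.369 CPM per kb. Both sums were higher in every DOX library than in any untreated one, although both shares were lower. With the length of the longest coding transcript, an alternative chosen after seeing the data, the cGMP-specific share was 0.619% in untreated and 65.4% in DOX cells.

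**Figure D3:**
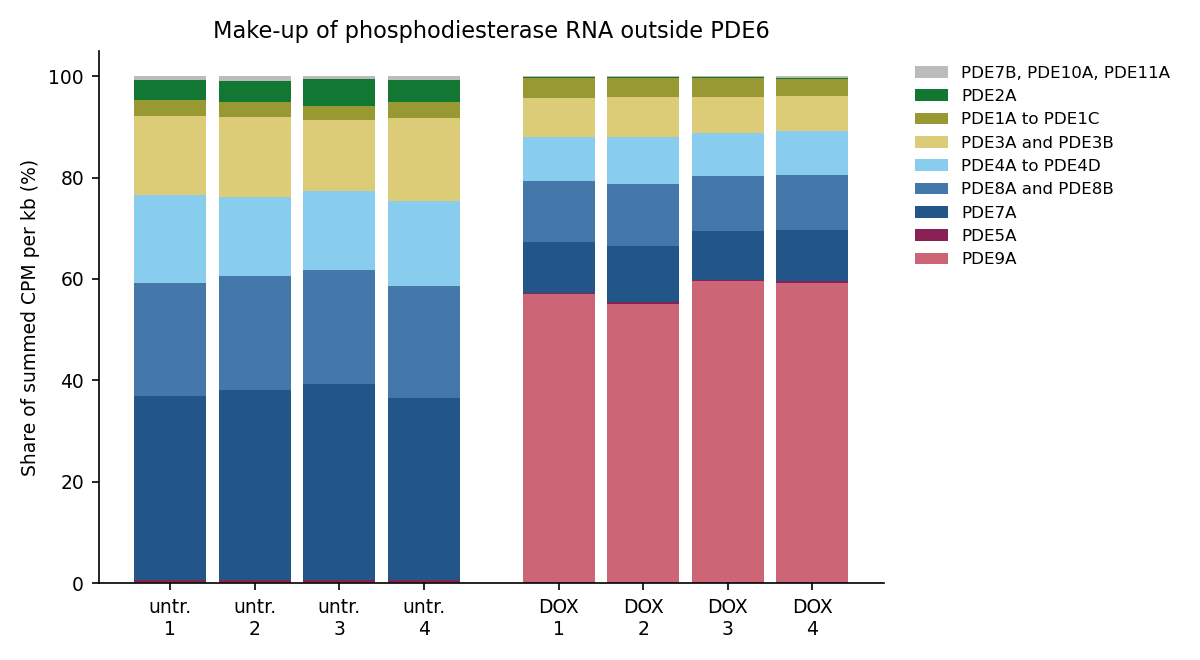
Share of the summed CPM per kb of 18 PDE genes outside PDE6 in each library (untr., untreated), with 1 stacked bar per library. PDE9A takes 0.157 to 0.305% of untreated bars and 55.1 to 59.6% of DOX bars, and PDE7A is the largest part of each untreated bar.

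In the order of levels per kb, PDE7A, PDE8A, PDE3B and PDE4B led in untreated cells, each above the next with no overlap between libraries. PDE2A, PDE4D, PDE4A and PDE8B followed at 0.911, 0.855, 0.848 and 0.796 CPM per kb, and neighbours among these 4 did not differ beyond their spread. In DOX cells PDE9A led. PDE7A and PDE8A, at 6.08 and 5.74 CPM per kb, overlapped. PDE3B, PDE4D and PDE1C came next at 4.25, 2.57 and 2.12 CPM per kb, each separate from the next. PDE2A stood at rank 5 in untreated and rank 13 in DOX cells, where it overlapped its neighbours PDE5A and PDE3A. With the length of the longest coding transcript its ranks were 6 and 12.

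The genes closest in pattern to the members with the largest rise and fall were found by Euclidean distance of log2 CPM over the 8 libraries, among all genes tested. For PDE9A these were RGPD1 (0.447 and 168 CPM in untreated and DOX cells, distance 1.77), NPTX2 (0.264 and 305 CPM, distance 1.91) and FGF18 (0.140 and 104 CPM, distance 2.08). RGPD1 belongs to a family of near-identical copies, so its count is uncertain. NPTX2 encodes a synaptic pentraxin and FGF18 a growth factor. For PDE2A they were KLF17 (6.69 and 0.840 CPM, distance 0.61), PRSS36 (5.64 and 0.814 CPM, distance 0.73) and SMTNL1 (5.32 and 0.872 CPM, distance 0.74).

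The genes that make and read cyclic nucleotides were taken from 6 lists of 67 matched genes, of which 47 were tested. At an adjusted p below 0.05, 23 rose, 15 fell and 9 did not pass. Of the 47, 1 was differentially expressed upwards and 5 downwards, with a median log2FC of 0.13. Of these 6, ADCY5, CNGB3 and AKAP4 are not tested when 5 or more libraries must reach 1 CPM, so their calls rest on the filter used here. These shares are set against those of all genes given above and no test of the lists was made.

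Among 10 adenylyl cyclases, which make cAMP, 6 were tested. Of these 4 rose, 1 fell and 1 did not pass, with a median log2FC of 0.68. ADCY5, the cyclase of striatal neurons, rose from 0.231 ± 0.0247 to 2.52 ± 0.160 CPM (SD, n = 4 each), with a log2FC of 3.46 (SE 0.14) and an edgeR adjusted p of 1.0e-09. Of 8 guanylyl cyclase genes, which make cGMP, 4 were tested. Of these 2 rose and 2 fell, none by the stricter rule, with a median log2FC of 0.07. GUCY1A2, a subunit of the nitric oxide receptor, was picked out after its values were seen. It rose from 89.6 ± 16.6 to 303 ± 37.8 CPM (SD, n = 4 each), with a log2FC of 1.76 (SE 0.13, edgeR adjusted p = 2.0e-07). GUCY1B1, the partner subunit of that receptor, was at 0.259 and 0.403 CPM and was not tested.

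Of 13 genes of PKA, PKG and their inhibitors, 10 were tested. Of these 5 rose, 3 fell and 2 did not pass, with a median log2FC of 0.16. PRKG2, the membrane-bound kinase that cGMP activates, fell from 12.9 ± 1.82 to 2.48 ± 0.238 CPM (SD, n = 4 each), with a log2FC of -2.38 (SE 0.12, edgeR adjusted p = 4.9e-09). PRKAR1B, a neuronal regulatory subunit of PKA, fell from 6.27 ± 0.707 to 1.10 ± 0.0954 CPM, with a log2FC of -2.51 (SE 0.12, edgeR adjusted p = 2.75e-09). All 4 DOX libraries were below all untreated ones for both. PRKG1, the other PKG gene, was too low to be tested, with 1, 0, 0 and 2 counts in untreated and 19.91, 16, 18 and 16 in DOX libraries, all of which were above the untreated ones.

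Of 15 other effectors, such as channels gated by cyclic nucleotides, 8 were tested. Of these 2 rose, 3 fell and 3 did not pass, with a median log2FC of -0.03. CNGB3, a channel subunit of cones, fell from 2.07 ± 0.392 to 0.124 ± 0.0327 CPM (SD, n = 4 each), with a log2FC of -4.05 (SE 0.23, edgeR adjusted p = 1.7e-08). CNGB1, the rod subunit, fell with a log2FC of -2.04 (SE 0.11, edgeR adjusted p = 1.0e-08). With library size in place of TMM (-1.91), or without DOX replicate 4 (-1.96), CNGB1 did not pass the fold threshold. All 6 CREB family genes and coactivators were tested. Of these 4 rose, 1 fell and 1 did not pass, none by the stricter rule, with a median log2FC of 0.32. Of 15 A-kinase anchoring genes, 13 were tested. Of these 6 rose, 5 fell and 2 did not pass, with a median log2FC of -0.06. AKAP4 fell from 1.66 ± 0.377 to 0.297 ± 0.109 CPM (SD, n = 4 each), with a log2FC of -2.46 (SE 0.25, edgeR adjusted p = 3.2e-06).

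**Figure D4:**
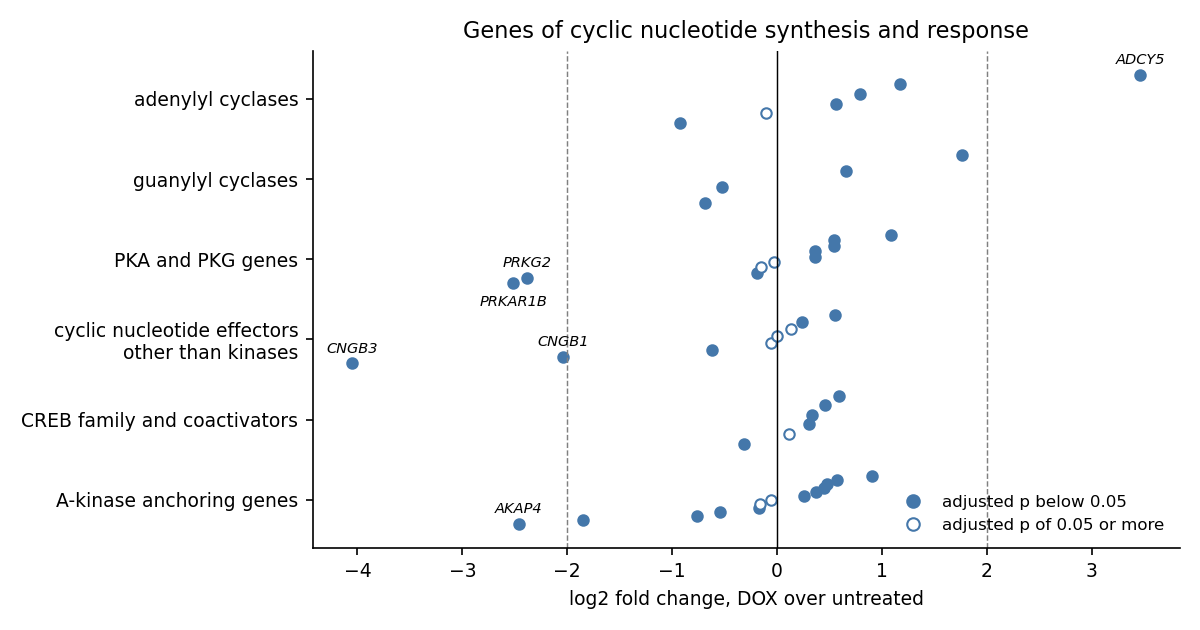
log2FC of DOX over untreated for the 47 tested genes that make or read cyclic nucleotides, by list. Filled points passed an adjusted p below 0.05, dashed lines mark 2 in either direction, and the 6 named genes (ADCY5 upwards, 5 downwards) were differentially expressed.

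The PDE6 genes, whose enzyme breaks down cGMP in rods and cones, were looked at beside PDE9A. Of 5 genes 3 were tested. PDE6A, a catalytic subunit of rods, fell from 9.26 to 0.523 CPM (log2FC -4.13, SE 0.11, edgeR adjusted p = 1.9e-11). PDE6A passed the filter through its untreated libraries alone, so it is not tested when 5 or more libraries must reach 1 CPM. PDE6H, the inhibitory subunit of cones, fell from 58.6 to 6.07 CPM (log2FC -3.27, SE 0.09, edgeR adjusted p = 2.8e-11). PDE6B, a catalytic subunit of rods, rose (log2FC 0.46, SE 0.07, edgeR adjusted p = 7.3e-05).

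Marker levels were read beside these results. Of 11 markers of Group 3 and Group 4 medulloblastoma, 7 were tested, of which 5 fell and 2 rose at an adjusted p below 0.05. By that rule 38.1% of all genes tested fell and 38.5% rose. The summed level of the list was 3221 to 3294 CPM in untreated and 1774 to 1916 CPM in DOX libraries. OTX2 was at 1049 and 510 CPM and CRX at 126 and 21.0 CPM. IMPG2 was at 473 and 58.7 CPM and NPR3 at 610 and 103 CPM. GABRA5 was at 58.9 and 17.5 CPM. RBM24 went the other way, from 5.79 to 14.2 CPM. KCNA1 had no counts, and LMX1A, EYA1 and EOMES were below 1 CPM on average. Although rare, EYA1 (0.0557 and 0.237 CPM) and EOMES (0.264 and 0.777 CPM) were higher in every DOX library than in any untreated one. MYC was at 939 and 1123 CPM with overlapping groups, and a gene count cannot separate reads of MYC from reads of the OMOMYC transgene.

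Of 7 markers of SHH and WNT medulloblastoma, 2 were tested (1 rose, 1 fell), and the list summed to 15.7 to 17.0 CPM in untreated and 8.30 to 9.52 CPM in DOX libraries. ATOH1, WIF1 and LEF1 had no counts in untreated cells. In DOX libraries WIF1 had 40, 49, 36 and 39 counts and LEF1 had 6, 3, 6 and 4, while ATOH1 had 1 count in all. GLI1 was at 15.0 and 4.99 CPM and SFRP1 at 0.255 and 2.01 CPM. Of 10 markers of fibroblasts, endothelium and blood, 2 were tested and 1 rose, CDH5, from no counts to 1.85 ± 0.237 CPM (SD, n = 4, edgeR adjusted p = 8.5e-08). The list summed to 22.6 to 24.1 CPM in untreated and 22.6 to 27.0 CPM in DOX libraries, mostly from COL1A1. HBB was at 0 in every library, and PECAM1, PTPRC and CD3E were below 0.1 CPM on average in both groups. CDH5 and SFRP1 passed the filter through their DOX libraries alone, so neither is tested when 5 or more libraries must reach 1 CPM. The part of these marker differences in the PDE values was not tested.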

How the data were processed

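The authors extracted polyA+ RNA from 8 cultures, described as independent biological replicates, prepared TruSeq Stranded libraries and read them as pairs. The authors trimmed reads with Trim Galore, aligned them to GRCh38 with STAR (GENCODE 32) and ran RSEM. They deposited its expected counts per gene, with no normalization. Reads that match several genes are divided among them, so counts of overlapping genes and paralogs depend on that step.

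Groups and replicate numbers came from the sample labels. Expected counts were rounded. Genes over 1 CPM in 4 or more libraries were tested with edgeR 4.0.16 in R 4.3.3 (TMM, quasi-likelihood test, Benjamini-Hochberg adjustment over 15222 genes, no covariates). SE is the absolute log2FC over the square root of the F statistic. The procedure was also run on simulated counts in which few genes changed, unlike here, and no result rests on that run. Differential expression means an FDR under 0.001 and a log2FC beyond 2 in either direction, as in the study's methods. The study's methods require over 1 CPM in more than 4 libraries, while its results text gives at least 4 libraries and an FDR under 0.01. The filter and FDR not used in the fit above were alternatives, as were DESeq2 1.42.0, other scalings, no filter, a replicate block and leaving out each library. Library totals of 38390696 to 54020506 counts put 3 counts, the floor used here, at 0.0586 to 0.0748 CPM after TMM scaling. Floors and intervals hold counting error alone: without molecular identifiers, PCR copies count as separate reads. Exact 95% intervals of count ratios are conditional binomial.

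Gene symbols came from a reference list of gene names, and from GENCODE 29 where that list had none. Coordinates and exon lengths came from GENCODE 29 on GRCh38, and promoter windows from RefSeq on GRCh38.p14. Of 16 listed A-kinase anchoring genes, 15 were matched. The members and lists were chosen with earlier results of these data known. Named genes are all 18 PDE genes outside PDE6, up to 4 differentially expressed genes of each other list, and the 3 genes closest in pattern to PDE9A and PDE2A. GUCY1A2, GUCY1B1, PRKG1, PDE6B and the markers given by level fall outside that rule and were picked after their values were seen.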

Additional observations from a re-analysis of the deposited data

Results flagged for a closer look

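A value was marked where 1 of 4 libraries of a group lay far from the other 3 by Dixon's test. Of 48 groups tested, 6 were marked, where chance gives about 1 in 20 (2.4 expected), and 4 of the 6 were values of untreated replicate 3. PDE4D was at 11.4 CPM in untreated replicate 3 and 14.5 to 15.1 CPM in the other untreated libraries. PDE3B was at 29.8 CPM there, against 36.6 to 37.8 CPM. PDE11A was at 1.38 CPM there, against 1.84 to 1.90 CPM. PDE10A had 1 count there, 0.0203 CPM, against 0 in the others. PDE1B had 1 count in untreated replicate 4, 0.0224 CPM, against 0. CNGB3 was at 2.65 CPM in untreated replicate 2 and 1.82 to 1.95 CPM in the others. The 2 marks on single counts are within counting error.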

How the results depend on the processing

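The 7 members tested gave 96 log2FC values under the alternatives, and each stayed within the spread between replicates of the value reported: PDE9A 9.34 to 9.62, PDE2A -3.10 to -2.89, PDE1C 1.69 to 1.90, PDE4D 1.49 to 1.71, PDE4B -0.67 to -0.48, PDE5A 0.40 to 0.67 and PDE8B 0.33 to 0.53. With over 1 CPM required in 5 or more libraries, 0 members (against PDE2A and PDE9A as a description in the fit reported), 0 other PDE genes and 3 pathway genes were differentially expressed, since PDE2A, PDE9A, PDE4C, ADCY5, CNGB3 and AKAP4 were then not tested. With no filter there were 2 other PDE genes and 10 pathway genes. Over all genes, 1084 were differentially expressed, 562 with the stricter filter and 2097 with none. Library size in place of TMM shifted the median log2FC of all genes from 0.01 to 0.14. AKAP6 (adjusted p = 0.049) lost its call at an adjusted p below 0.05 when any 1 of 6 libraries was left out (0.060 to 0.13), including each DOX library and untreated replicates 3 and 4, with no filter (0.061) and with DESeq2 size factors (0.051). Without untreated replicate 3, AKAP9, AKAP12 and POPDC3 gained it. PRKAR2A and AKAP8 lost it with library size only. The cause of these changes was not tested.

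Replicate numbers are shared by the groups. Deviations of same-numbered libraries correlated at -0.18 to 0.24, and 2 of 8 libraries correlated best with their own number, so the numbers were not taken as pairs. With a replicate block, 1 other PDE gene and 6 pathway genes were differentially expressed, beside 1085 of all 15222 genes tested. At an adjusted p below 0.05, 5 of 6 other PDE genes and 38 of 47 pathway genes passed, beside 11805 of all genes.

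Low counts limit what is said of PDE7B, PDE10A, PDE1B and PDE1A. Promoter windows of PDE9A were not analysed here.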
